A study of Mus musculus with 35 samples.

Results

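The Hnrnp and Srsf genes encode the heterogeneous nuclear ribonucleoproteins (hnRNPs) and the serine- and arginine-rich (SR) splicing factors. Members were all genes whose symbol was Hnrnp followed by further letters or digits, or Srsf followed by a number. The rule found 31 genes, 20 Hnrnp and 11 Srsf, among the 32285 genes of the tables of the lactate and technique experiments and the 35624 genes of the table of the AZD3965 experiment. Of the 31 members, 30 had a count in at least 1 of the 35 cells, and Srsf12 had none.

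The study sequenced single cells labelled as primary peritoneal macrophages of 6-month-old male C57BL/6 mice by Smart-seq2, a method that amplifies full-length cDNA of 1 cell without molecular identifiers. In scMeT-seq, a nano-capillary first drew a little cytoplasm for mass spectrometry and the same cell was then sequenced. The lactate experiment held 8 control cells and 8 lactate-treated cells. The technique experiment held 2 control and 3 lactate-treated whole cells, sequenced without cytoplasm sampling, and 4 lactate-treated scMeT-seq cells. The AZD3965 experiment held 5 cells given lactate and 5 given lactate and AZD3965, an inhibitor of the lactate transporter MCT1. The paper applied scMeT-seq in the lactate and AZD3965 experiments as well. Below, the name scMeT-seq cells stands for the 4 of the technique experiment only. Lactate was at 10 mM and AZD3965 at 300 nM for 72 h, per the study's methods, and the AZD3965 experiment had no cell without lactate. No animal or culture was named for any cell, so each group was treated as 1 sample. Counts were summed over its cells and scaled to its total count (CPM), no p-value was computed, and intervals are exact 95% intervals that cover counting error only.

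Total counts per cell ran from 269393 to 459859 in the lactate experiment, from 494520 to 851417 in the technique experiment and from 58444 to 175450 in the AZD3965 experiment. The macrophage label was checked against 18 marker genes, and at least 16 were detected in every cell but control cell CTL32, which had 13. In CTL32 the macrophage markers summed to 1359 CPM and 14 fibroblast markers to 45720 CPM, whereas the macrophage markers of every other cell reached at least 31240 CPM. Fibroblast or mesothelial markers also reached 26.07% of the macrophage marker sum in CTL30, 17.85% in Lactic29 and 56.29% in W14, a cell given AZD3965. Markers of B cells, T or NK cells, neutrophils and mast cells summed to at most 247.0, 53.05, 12.24 and 0 CPM in any cell. Values without these 4 cells with fibroblast or mesothelial markers are given beside results that they moved. No pair of cells held identical counts.

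Both families bind nascent transcripts in the nucleus. SR proteins carry RNA recognition motifs and a tail of arginine-serine dipeptides that kinases phosphorylate, and they mostly favour the use of nearby splice sites. Many hnRNPs carry recognition or KH domains with arginine- and glycine-rich stretches, and they often act against SR proteins at the same exons, besides their work in mRNA export, stability and translation. SR protein genes are also known for exons that send their own transcripts to nonsense-mediated decay.

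The coding sequences of the families differed in arginine-serine content. In the longest coding transcript of each gene in the GENCODE M21 annotation, Srsf genes held from 9 (Srsf9) to 106 (Srsf4) adjacent arginine-serine codon pairs in either order, with a median of 42, and Hnrnp genes from 2 to 13, with a median of 4. Arginine-glycine pairs ran from 4 to 34 in Hnrnp genes (median 12) and from 2 to 11 in Srsf genes (median 7). These are counts per coding sequence, and Hnrnp sequences held 305 to 859 codons and Srsf ones 164 to 511. The counts therefore do not show that Hnrnp genes are richer in arginine-glycine pairs per length. Arginine and serine codons made up 22.1 to 45.7% of the Srsf coding sequences and 10.1 to 18.2% of the Hnrnp ones. A transcript annotated for nonsense-mediated decay was present in 9 of the 11 Srsf and 10 of the 20 Hnrnp genes, and one with a retained intron in 8 and 14.

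For 7 members on which the results below turn, a stretch of 60 coding bases is shown from the part richest in these pairs within 1 exon. Sequence and positions are from GENCODE M21 on GRCm38, read 5′ to 3′ on the gene's strand, and capitals mark codons that belong to an arginine-serine pair (Srsf) or to an arginine-glycine pair (Hnrnp). The Srsf5 stretch lies at chr12:80949718-80949777 on the plus strand in exon 8 of 8, that of Srsf3 at chr17:29041232-29041291 on the plus strand in exon 5 of 6, that of Srsf11 at chr3:158016393-158016452 on the minus strand in exon 9 of 13, and that of Srsf2 at chr11:116852256-116852315 on the minus strand in exon 2 of 3. The Hnrnpu stretch lies at chr1:178330596-178330655 on the minus strand in exon 11 of 14, that of Hnrnpab at chr11:51602603-51602662 on the minus strand in exon 6 of 8, and that of Hnrnpk at chr13:58394618-58394677 on the minus strand in exon 12 of 18.
Srsf5: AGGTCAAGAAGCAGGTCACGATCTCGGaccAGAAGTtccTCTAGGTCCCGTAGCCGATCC
Srsf3: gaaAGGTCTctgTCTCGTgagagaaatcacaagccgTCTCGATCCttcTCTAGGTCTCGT
Srsf11: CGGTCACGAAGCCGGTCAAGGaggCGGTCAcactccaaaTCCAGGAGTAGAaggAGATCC
Srsf2: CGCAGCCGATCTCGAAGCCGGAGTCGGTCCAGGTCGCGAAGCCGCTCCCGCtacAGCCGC
Hnrnpu: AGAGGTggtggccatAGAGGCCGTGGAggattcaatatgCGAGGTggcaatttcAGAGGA
Hnrnpab: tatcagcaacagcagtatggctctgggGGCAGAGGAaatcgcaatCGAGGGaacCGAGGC
Hnrnpk: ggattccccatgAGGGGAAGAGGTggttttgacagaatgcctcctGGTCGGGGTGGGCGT
The Srsf2 stretch held 17 arginine-serine pairs, that of Srsf5 15, that of Srsf11 11 and that of Srsf3 7. The 3 Hnrnp stretches held 4 to 6 arginine-glycine pairs.

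Per kilobase of annotated exon, the members spanned a wide range of levels. On the mean over all 35 cells, Hnrnpf (79.79 CPM per kb), Hnrnpk (77.73) and Srsf5 (71.06) led, followed by Hnrnpa2b1 (52.33), Hnrnpc (30.01), Hnrnpa1 (29.75), Hnrnph2 (22.76), Srsf7 (20.32) and Srsf3 (19.03). The first 2 changed places with the group. In 6 of the 7 groups Hnrnpk lay above Hnrnpf (75.38 against 69.83 CPM per kb in control cells, 67.37 against 66.17 in scMeT-seq cells), and in the lactate cells of the AZD3965 experiment Hnrnpf lay above, at 126.1 against 61.16. That group weighs on their close order over all cells. So does control cell CTL27, with 757.3 CPM of Hnrnpf and 627.3 CPM of the longer Hnrnpk. The lowest member with any count was Hnrnpd, an AU-rich element binding protein, at 2.193 CPM per kb. Hnrnpk, Hnrnpa2b1, Hnrnpc, Hnrnpa1, Hnrnph2 and Srsf11 had counts in all 35 cells.

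Hnrnpk, a KH-domain protein that binds cytidine-rich RNA, reached 244.6 to 894.1 CPM over the 8 control cells (median 493.1) and 260.9 to 621.9 CPM over the 8 lactate cells (median 482.2). Per kilobase its group levels ran from 61.16 CPM in the lactate cells of the AZD3965 experiment to 115.4 CPM in the lactate-treated whole cells. The cell ranges of its control and lactate groups overlapped almost entirely.

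Hnrnpf, which binds runs of guanosines, ran from 0 to 757.3 CPM over the control cells (median 169.0) and from 0 to 251.3 CPM over the lactate cells (median 199.2). The 757.3 CPM came from CTL27, a cell with 3392 detected genes, in which Hnrnpf alone made up 28.69% of the member CPM. Cells CTL30 and Lactic31 had no Hnrnpf count.

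Srsf5, an SR protein whose transcript is known to respond early to growth signals, ran from 141.6 to 398.6 CPM in control cells (median 243.9) and from 0 to 335.5 CPM in lactate cells (median 223.9). Lactic31 was the single cell of all 35 without a Srsf5 count. Srsf7, which carries a zinc knuckle beside its recognition motif, ran from 0 to 113.5 CPM in control cells (median 39.39) and from 0 to 100.4 CPM in lactate cells (median 51.92). Its group levels per kilobase, 12.45 to 29.42 CPM, were all below those of Srsf5, 53.02 to 95.77 CPM.

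**Figure D1:**
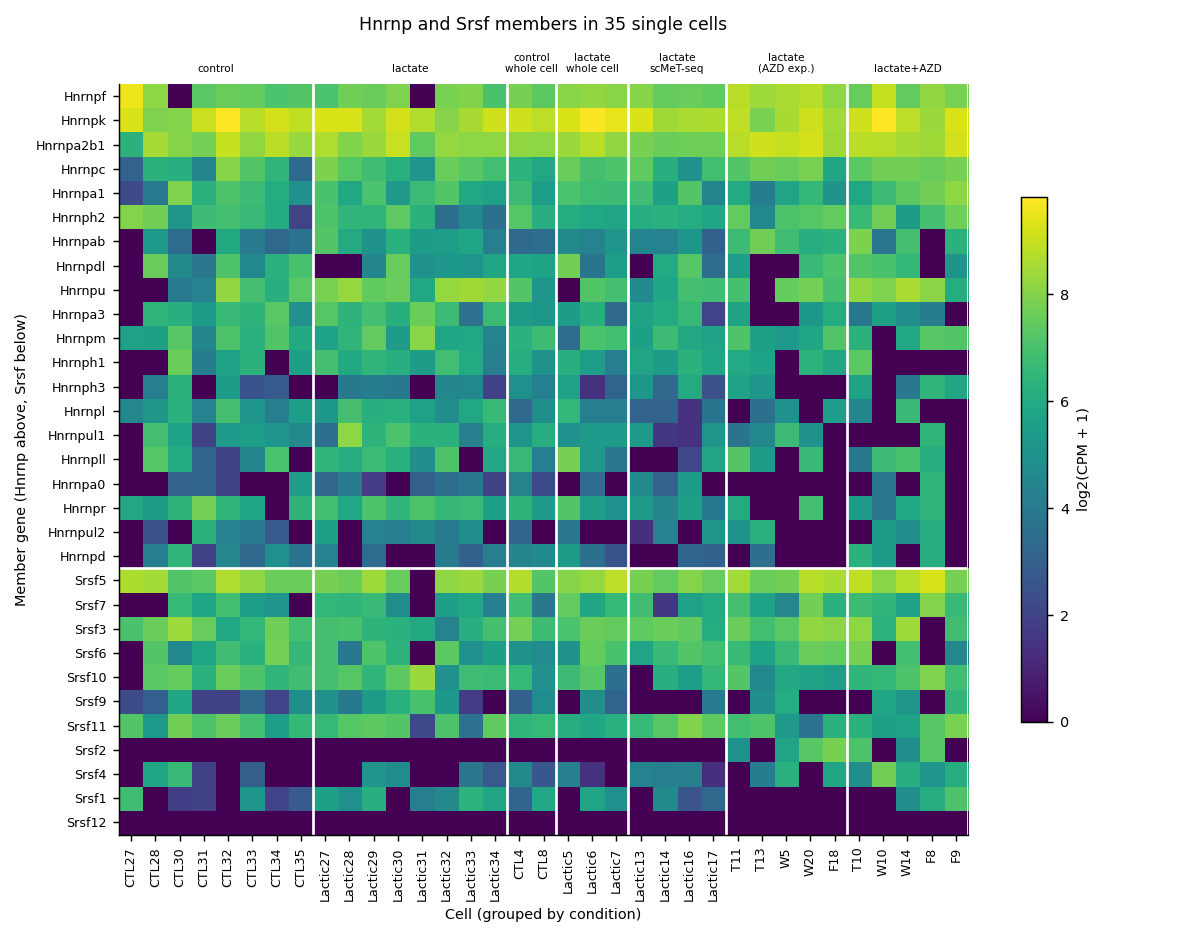
Colour gives log2(CPM + 1) for the 31 members (vertical axis, Hnrnp above and Srsf below the white line) in each of the 35 cells (horizontal axis, grouped by condition). Hnrnpk, Hnrnpa2b1 and Srsf5 are bright in nearly all cells, Srsf2 is at 0 outside the AZD3965 experiment, and Srsf12 is at 0 in all 35 cells.

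Srsf2, an SR protein with a single recognition motif before its arginine-serine tail, had 0 counts in all 16 cells of the lactate experiment and in all 9 cells of the technique experiment. In the AZD3965 experiment it had 89 counts in 7 of 10 cells, namely 31.41 CPM in T11, 52.46 in W5, 154.2 in W20, 220.9 in F18, 134.6 in T10, 28.29 in W14 and 154.0 in F8. The gene lies at chr11:116849901-116853094 on the minus strand, and 25.3% of its exon bases overlap Mettl23 or Mfsd11 on the other strand. Mfsd11 had 356 counts in the lactate experiment, 439 in the technique experiment and 157 in the AZD3965 experiment, and Mettl23 had 137, 83 and 32. The gene lists of the tables differed in length (32285 against 35624), so the absence of Srsf2 counts and the table cannot be told apart, and no level of Srsf2 was compared across experiments.

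Other members shared exon bases with neighbours as well, and the library method does not mark strand. The shared portion was 43.0% of Srsf4 (Gm12992), 29.1% of Hnrnpab (Phykpl), 26.5% of Hnrnpf (4933440N22Rik and Gm43863), 6.93% of Hnrnpu (Cox20) and 5.1% of Hnrnpk (Rmi1), all on the other strand, and 14.7% of Hnrnpm (March2) on the same strand. Several hnRNP genes, Hnrnpa1 among them, also have processed pseudogenes, and how reads shared with such copies were counted is not given in the sources used here. Values of these genes are uncertain to that extent.

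In the lactate experiment the number of members detected per cell followed the number of genes detected. Elsewhere there were exceptions, such as W5 with 6285 genes and 20 members and T13 with 5291 genes and 23 members. Medians were 26 members in control cells (14 to 28) and 26.5 in lactate cells (22 to 29), 28.5 in control whole cells (28 to 29), 26 in lactate whole cells (25 to 28) and 26.5 in scMeT-seq cells (23 to 28). In the shallower AZD3965 experiment they were 22 (20 to 24) with lactate and 23 (20 to 26) with lactate and AZD3965. With each cell thinned to the smallest total of its experiment, the medians were 25, 26.5, 28.5, 26, 26.5, 21 and 23 in the same order. Over the 16 cells of the lactate experiment, members detected and genes detected correlated with r = 0.89 and rho = 0.88, both measures being taken from the same library, and the cell farthest out was CTL27 with 14 members.

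**Figure D2:**
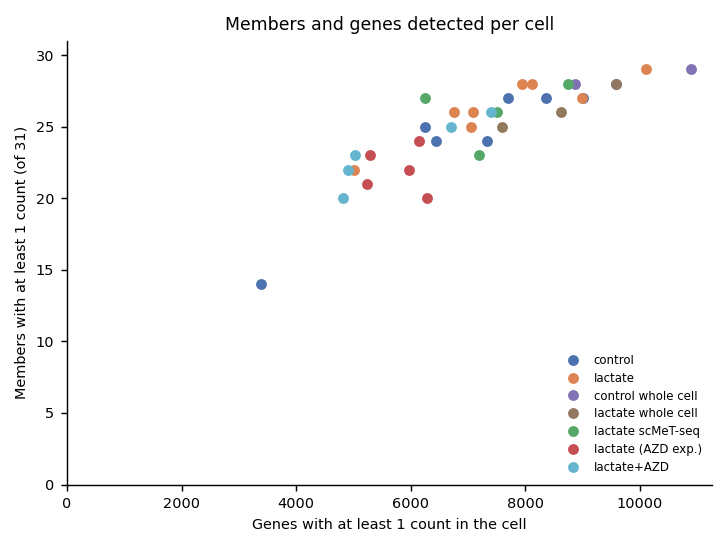
Each point is 1 of the 35 cells, with the genes that had a count on the horizontal axis and the members that had a count, of 31, on the vertical axis, coloured by group. In the lactate experiment, cells with more detected genes tended to hold more members. Over all cells, members ran from 14 in CTL27 to 29 in CTL4 and Lactic29.

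In lactate-treated cells the Hnrnp members together took a larger share of the transcriptome than in control cells, and the Srsf members a slightly smaller one, with overlapping cells in both. Single members weighed on both sums. Of the 20 Hnrnp members, 9 had counting intervals above 0 and 5 below, and Hnrnpu alone was at 84.63 CPM in control and 245.7 CPM with lactate. Hnrnp genes summed to 1555 to 3206 CPM over the 8 control cells (median 1847) and to 1761 to 2678 CPM over the 8 lactate cells (median 2220.5). The highest of the 16 cells was CTL32, the control cell with few macrophage markers. Over the groups, the Hnrnp sum was 1980.4 CPM in control and 2251.0 CPM in lactate, a log2 ratio of 0.18 (0.13 to 0.24), and without CTL30, CTL32 and Lactic29 it was 1814 and 2252 CPM, a log2 ratio of 0.31 (0.25 to 0.37).

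Srsf genes summed to 642.2 to 1143 CPM over the control cells (median 794.65) and to 536.3 to 1058 CPM over the lactate cells (median 757.35). The group sums were 865.32 and 780.28 CPM, a log2 ratio of −0.15 (−0.23 to −0.07), and −0.09 (−0.18 to 0.01) without CTL30, CTL32 and Lactic29. Of the 9 Srsf members measured, 2 had counting intervals above 0 and 3 below. Srsf3 alone was at 165.9 CPM in control and 83.55 CPM with lactate. As a share of the CPM of all members, Srsf genes made up 24.9 to 39.1% in control cells (median 29.9%) and 22.77 to 32.05% in lactate cells, a measure looked at after its values were seen. All control cells but CTL32 lay above all lactate cells but Lactic29 in this share, and both of these cells were among those with fibroblast markers.

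**Figure D3:**
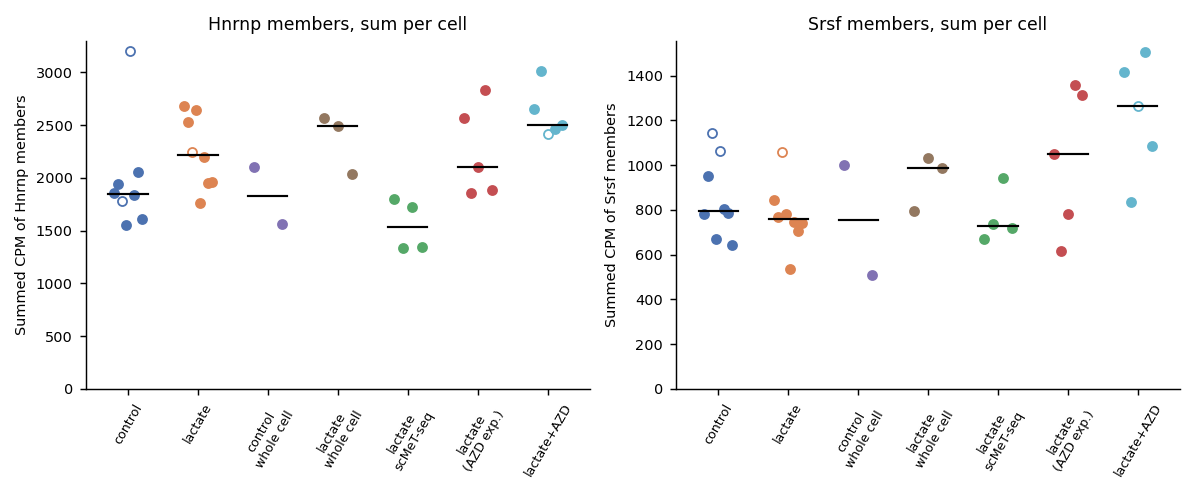
Summed CPM of the 20 Hnrnp members (left) and the 11 Srsf members (right) in each cell, by group, with the group median as a bar. Open circles mark the 4 cells with fibroblast or mesothelial markers. The 4 scMeT-seq cells of the technique experiment lie at 1334 to 1795 CPM for Hnrnp, below the 3 lactate-treated whole cells at 2034 to 2564 CPM. The lactate cells of the lactate experiment lie at 1761 to 2678 CPM.

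Of the 31 members, 29 had at least 10 counts over both groups. Of these, 5 were at least 2-fold higher with lactate (17.2%, against 15.1% of all 11506 genes measured) and 2 at least 2-fold lower (6.9%, against 22.0%). The median log2 ratio was 0.22 for Hnrnp, −0.10 for Srsf and −0.09 for all genes. No member had control and lactate cells without overlap, nor did any other gene (0.0%). The count of lower members was 0 without CTL30 (19.6% of all genes) and 1 without CTL28 (21.9%) or Lactic32 (22.7%). The Srsf median turned to 0.08 without CTL30, 0.07 without Lactic33 and 0.02 without CTL32, and the Hnrnp median was 0.05 without CTL28. Among the members that met the rule for naming, Hnrnpab, Hnrnpu and Hnrnpul1 had the highest ratios and Srsf3, Hnrnpdl and Hnrnph2 the lowest.

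Hnrnpab, an A/B-type hnRNP, was at 0 to 60.9 CPM in control cells (median 11.2) and at 17.2 to 145.7 CPM in lactate cells (median 49.67). The lactate cells lay mostly above, and the ranges overlapped. The group levels were 58.88 CPM with lactate and 19.37 CPM in control, 3.04-fold higher (log2 ratio 1.60, 1.17 to 2.06), and without CTL30, CTL32 and Lactic29 they were 63.08 and 14.18 CPM (2.15, 1.59 to 2.76).

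Hnrnpu, also called scaffold attachment factor A, binds RNA and chromatin in the nuclear matrix. It was at 0 to 299.0 CPM in control cells (median 44.86) and at 58.82 to 339.7 CPM in lactate cells (median 263.9). CTL32 held the 299.0 CPM, and 2 control cells, CTL27 and CTL28, had no count. The group levels were 245.7 and 84.63 CPM, 2.90-fold higher with lactate (log2 ratio 1.54, 1.33 to 1.75), and without CTL30, CTL32 and Lactic29 they were 257.6 and 61.77 CPM (2.06, 1.79 to 2.34).

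Hnrnpul1, a relative of hnRNP U, was at 0 to 117.8 CPM in control cells (median 37.0) and at 11.2 to 283.1 CPM in lactate cells (median 77.85), with overlap. The group levels were 94.74 and 43.16 CPM, 2.20-fold higher (log2 ratio 1.13, 0.83 to 1.45). Lactic28 held the highest value, and the log2 ratio was 0.60 without it. The third U-type gene, Hnrnpul2, was at 18.75 and 15.97 CPM (0.23, −0.35 to 0.82).

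Srsf3, the smallest SR protein, couples splicing to mRNA export. It was at 58.13 to 336.3 CPM in control cells (median 155.1) and at 19.57 to 126.9 CPM in lactate cells (median 80.16). The highest lactate cell lay below the control median, and the ranges overlapped through CTL32, CTL33, CTL35 and CTL27. The group levels were 83.55 CPM with lactate and 165.9 CPM in control, 1.99-fold lower (log2 ratio −0.99, −1.21 to −0.77), and the ratio stayed between −1.12 and −0.74 with any 1 cell left out.

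Hnrnpdl, which binds AU-rich RNA, was at 0 to 189.0 CPM in control cells (median 50.83) and at 0 to 186.7 CPM in lactate cells (median 33.02). Its log2 ratio of −0.83 (−1.15 to −0.51) moved to −1.60 without Lactic30 and to −0.39 without CTL28, so single cells set its size. Hnrnph2, the X-linked relative of Hnrnph1, was at 3.073 to 252.4 CPM in control cells (median 101.5) and at 10.87 to 166.0 CPM in lactate cells (median 82.5), a log2 ratio of −0.62 (−0.88 to −0.37).

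The other members past 2-fold were low in level or rested on 1 cell, and are named here because the count is small. Srsf9 was at 37.5 CPM with lactate and 14.27 CPM in control (log2 ratio 1.39, 0.87 to 1.94). Without CTL30, CTL32 and Lactic29 the Srsf9 ratio was 2.08 (1.36 to 2.88). Srsf1, the founding SR protein, was at 42.11 and 16.99 CPM (1.31, 0.83 to 1.81), and CTL27 held 69.56% of its control CPM. Without CTL30, CTL32 and Lactic29 its log2 ratio was 0.75, and that of Hnrnpd −0.50, neither past 2-fold. Srsf4 (10.2 and 23.45 CPM, −1.20) and Hnrnpd (8.882 and 23.45 CPM, −1.40) had 60.8% and 47.9% of their control CPM in CTL30. The most abundant members differed little over all cells, with log2 ratios of −0.08 for Hnrnpk, 0.01 for Hnrnpa2b1, −0.17 for Srsf5 and −0.23 for Hnrnpf. Without CTL30, CTL32 and Lactic29 these ratios were 0.05, 0.10, −0.28 and −0.51, the last with an interval of −0.69 to −0.33.

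Without CTL30, CTL32 and Lactic29, the counts moved. Then 9 members were at least 2-fold higher (31%, against 19.9% of all 10477 genes measured), namely Hnrnpab, Hnrnpc, Hnrnph1, Hnrnph3, Hnrnpl, Hnrnpu, Hnrnpul1, Srsf7 and Srsf9. Srsf4 alone was at least 2-fold lower (3.45%, against 18.3%). The median log2 ratio was then 0.24 for Hnrnp, 0.17 for Srsf, turned from negative to positive, and 0.01 for all genes. Hnrnph3 turned from −0.62 to 1.15.

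Other marker lists differed between these groups too. The summed level of 17 cell division genes was 6.92 to 100.1 CPM in lactate cells and 43.02 to 351.6 CPM in control cells, and 10 of the 17 could be measured, with a median log2 ratio of −2.74. The 14 fibroblast markers, 12 of them measured, summed to 0 to 7708 CPM in lactate cells and 0 to 45720 CPM in control cells. Of 11 early genes known to respond to cell handling, 8 were measured, with a median log2 ratio of 0.62, 3 at least 2-fold higher and 0 lower. Their sum was 449.8 to 1622 CPM in lactate cells and 193.0 to 1579 CPM in control cells. The cells differed in these lists beside the members, and their part in the result was not tested.

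**Figure D4:**
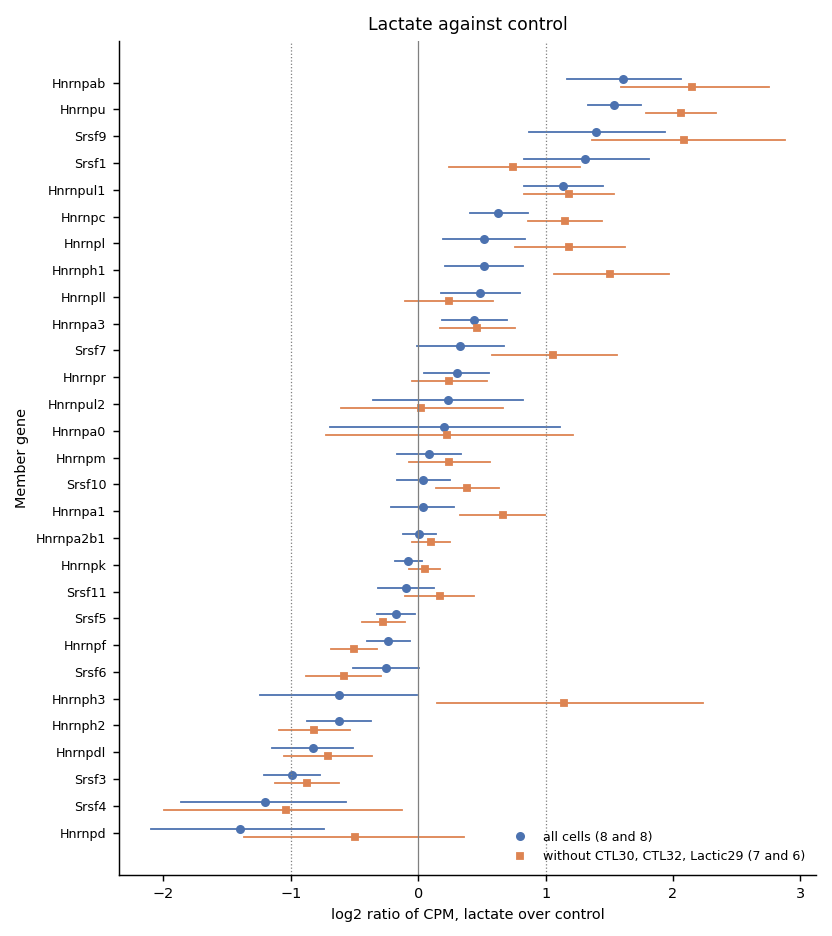
Log2 ratio of CPM, lactate over control, for the 29 members measured, with exact 95% intervals that cover counting error only. Circles use all 8 and 8 cells and squares leave out CTL30, CTL32 and Lactic29, and the dotted lines mark 2-fold. Hnrnpab is at the top under both (1.60 and 2.15), and Hnrnph3 changes side.

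The whole-cell libraries gave a second comparison of lactate with control, with 3 and 2 cells and none in common with the first. All genes had a median log2 ratio of −0.20 here, and other scalings moved ratios up by 0.18. Of 29 members measured, 4 were at least 2-fold higher (13.8%, against 15.2% of 9732 genes) and 3 at least 2-fold lower (10.3%, against 27.6%), and the median log2 ratio was 0.08 for both families. Without CTL4 the medians were 0.54 for Hnrnp and 0.67 for Srsf, with 9 members higher and 1 lower, beside 23.6% and 25.4% of all genes. Without Lactic5 the counts were 2 and 6, beside 14.5% and 30.5% of all genes, and without Lactic6 the Srsf median was −0.32. The Hnrnp sum was 1887.0 CPM in control and 2344.4 CPM with lactate (0.31, 0.24 to 0.38), and the Srsf sum 805.79 and 946.14 CPM (0.23, 0.12 to 0.34).

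Hnrnpc, which binds uridine tracts, was at 81.04 and 57.06 CPM in the control cells CTL4 and CTL8 and at 192.1, 122.4 and 140.0 CPM in the lactate cells Lactic5, Lactic6 and Lactic7. All lactate cells lay above both control cells, with group levels of 148.6 and 71.52 CPM (log2 ratio 1.06, 0.72 to 1.40). Hnrnpk was at 547.3 and 465.4 CPM in control and at 616.8, 876.5 and 722.0 CPM with lactate (0.54, 0.40 to 0.67). Its cells did not overlap either.

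Hnrnpf was at 222.0 and 160.5 CPM in control and at 271.0, 302.0 and 267.4 CPM with lactate (0.51, 0.29 to 0.72), again without overlap. With Hnrnpa1, Hnrnpab and Srsf6, 6 members had all lactate whole cells above both control cells, beside 5.99% of all genes. Hnrnph2 and Srsf11 had all lactate cells below, beside 15.4% of all genes. No member could meet the rule for naming lower genes here, because with 2 control cells 1 of them always holds over 50% of the CPM.

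Srsf6, an SR protein of the type with a second recognition motif, was at 31.71 and 26.74 CPM in control and at 32.35, 179.5 and 129.0 CPM with lactate, and is named here because its log2 ratio, 2.01 (1.52 to 2.52), was the largest of the 29. Lactic5 lay close to the control cells. For Hnrnpl, which binds CA-rich RNA, Lactic5 held 72.07% of the lactate CPM. Hnrnpab (1.41) and Hnrnpl (1.18) joined Hnrnpc and Srsf6 past 2-fold on the higher side. Hnrnph2 (−1.03), Srsf4 (−1.57) and Hnrnpa0 (−1.97) were past it on the lower side, Srsf4 with 10 and 24 counts and Hnrnpa0 with 6 and 19. The cell division genes summed to 51.91 to 127.3 CPM in the lactate whole cells and to 113.9 to 221.1 CPM in the control whole cells. The fibroblast markers, 4 of 14 measured, summed to 39.33 to 242.7 CPM with lactate and to 10.7 to 31.71 CPM in control, with 3 at least 2-fold higher and 1 lower. The early genes, 8 of 11 measured, summed to 968.6 to 1466 CPM and to 506.2 to 1626 CPM. Their median log2 ratio was 0.37, with 1 at least 2-fold higher (Fos, 2.49) and 1 lower. The part of these lists in the result was not tested.

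Set side by side, the lactate experiment and the whole cells gave log2 ratios of 1.60 and 1.41 for Hnrnpab, 0.63 and 1.06 for Hnrnpc, 0.52 and 1.18 for Hnrnpl, −0.62 and −1.03 for Hnrnph2 and −1.20 and −1.57 for Srsf4. Both counting intervals lay above 0 in the first 3 (10.3% of the members, beside 6.48% of all genes) and below 0 in the last 2 (6.9%, beside 11.6%). For Hnrnpl the whole-cell ratio rested on Lactic5, at 91.0 CPM. Lactic6 and Lactic7, at 17.95 and 17.3 CPM, lay between the control cells CTL4 (9.396) and CTL8 (28.53). Hnrnpdl (−0.83 and 0.61) and Hnrnpf (−0.23 and 0.51) had intervals on opposite sides (6.9%, beside 21.9%), and Hnrnpu had 1.54 and −0.11. For Hnrnpdl the whole-cell ratio above 0 rested on Lactic5, which held 78.81% of the lactate CPM. Lactic6 and Lactic7, at 13.06 and 44.05 CPM, lay below the control cells CTL4 (54.03) and CTL8 (51.71). Without CTL30, CTL32 and Lactic29, both intervals lay above 0 in 5 members (17.2%, beside 7.19%), Hnrnpa1 and Srsf7 being added, below 0 in the same 2 (6.9%, beside 10.8%) and on opposite sides in 3 (10.3%, beside 20.8%), Srsf6 being added. Over the 29 members, 12 ratios were above 0 in both and 6 below 0 in both, 62.1% of the members, beside 47.4% of the 9395 genes measured in both. As a description across genes, r was 0.25 and rho 0.20 for the members and −0.04 and −0.05 for all genes.

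The technique comparison set the 4 scMeT-seq cells against the 3 whole cells, all given lactate. The Hnrnp sum was lower in the scMeT-seq cells, though 6 of the 20 Hnrnp members had ratios above 0. Hnrnp genes summed to 1795, 1334, 1720 and 1347 CPM in Lactic13, Lactic14, Lactic16 and Lactic17 and to 2564, 2489 and 2034 CPM in the whole cells Lactic5, Lactic6 and Lactic7. The groups did not overlap, and the log2 ratio of the group sums, 1553.6 over 2344.4 CPM, was −0.59 (−0.66 to −0.53). Srsf genes summed to 668.4, 737.0, 941.2 and 717.6 CPM and to 792.7, 1030 and 984.8 CPM, with overlap, a log2 ratio of −0.31 (−0.40 to −0.21). The lactate cells of the lactate experiment, also profiled by scMeT-seq, had a Hnrnp sum of 2251.0 CPM (1761 to 2678 over cells). Their Srsf sum was 780.28 CPM. The lactate experiment held no whole cells, so the comparison with whole cells could be made within the technique experiment only. The reason for the lower Hnrnp sum there was not tested.

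The median log2 ratio was −0.51 for Hnrnp members, −0.73 for Srsf members and 0.02 for all 9723 genes measured. The Srsf median was −0.00 without the whole cell Lactic6, and the Hnrnp median stayed between −0.55 and −0.40 with any 1 cell left out. The counting interval lay wholly below 0 for 17 of the 29 members measured, beside 32.2% of all genes, and wholly above 0 for 5, beside 32.7%. Of these 5, the Hnrnp members were Hnrnpa0, Hnrnpul2 and Hnrnph3, the last at a log2 ratio of 0.72 (0.08 to 1.39). By size, 4 members were at least 2-fold higher (13.8%, against 21.7% of all genes) and 6 at least 2-fold lower (20.7%, against 20.6%), so the lower share past 2-fold was close to that of all genes. Without Lactic5, 3 members were at least 2-fold lower, beside 17.9% of all genes.

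Hnrnpk was at 616.8, 876.5 and 722.0 CPM in whole cells and at 608.8, 346.4, 383.8 and 387.6 CPM in scMeT-seq cells, a log2 ratio of −0.78 (−0.90 to −0.66). All scMeT-seq cells lay below all whole cells, Lactic13 by little. Hnrnpa2b1, an A/B-type hnRNP also known for sorting RNA, was at 325.6, 432.5 and 291.0 CPM and at 224.4, 198.2, 201.8 and 200.4 CPM (−0.76, −0.94 to −0.59). Its scMeT-seq cells lay close together, all below the whole cells.

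Srsf5 was at 260.9, 310.1 and 459.3 CPM in whole cells and at 222.8, 175.1, 258.0 and 187.1 CPM in scMeT-seq cells (log2 ratio −0.73, −0.90 to −0.56). Its groups were apart by a narrow gap, between 258.0 and 260.9 CPM. With Hnrnpf (−0.48, −0.66 to −0.29) and Hnrnpl (−2.30, −3.12 to −1.55), 5 members had all scMeT-seq cells below all whole cells, beside 3.08% of all genes. The size of the Hnrnpl ratio rested much on the whole cell Lactic5, at 91.0 CPM. Lactic6 and Lactic7 were at 17.95 and 17.3 CPM, and the scMeT-seq cells at 1.654 to 13.26 CPM. In the lactate cells of the lactate experiment, Hnrnpk was at 462.2 CPM, Hnrnpa2b1 at 318.4, Srsf5 at 235.2, Hnrnpf at 180.9 and Hnrnpl at 67.11 CPM. In the same order, scMeT-seq cells were at 435.6, 206.5, 211.5, 201.6 and 7.786 CPM. Whole cells were at 746.5, 350.6, 350.6, 280.6 and 38.44 CPM.

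Srsf11, an SR-related protein that associates with splice site factors, went the other way. It was at 68.75, 53.86 and 73.93 CPM in whole cells and at 94.15, 152.0, 249.8 and 166.5 CPM in scMeT-seq cells, and every scMeT-seq cell lay above every whole cell. The level was 2.53-fold higher (log2 ratio 1.34, 1.03 to 1.65), and it was the only one of the 29 members without overlap on this side, beside 1.7% of all genes. In the lactate cells of the lactate experiment, Srsf11 ran from 3.46 to 169.1 CPM, across both of these ranges.

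The next 2 on the higher side overlapped between the groups. Hnrnph1 was at 72.8, 44.07 and 17.3 CPM in whole cells and at 51.78, 40.41, 77.74 and 54.52 CPM in scMeT-seq cells (0.41, −0.00 to 0.84). Hnrnpa3 was at 42.47, 73.45 and 9.439 CPM and at 50.21, 65.42, 94.29 and 2.947 CPM (0.31, −0.12 to 0.75), and its ratio ran from −0.22 to 1.10 with 1 cell left out. The remaining members past 2-fold were Hnrnpa0 (2.42), Hnrnpul2 (1.84) and Srsf4 (1.28) on the higher side and Hnrnpll (−2.42), Hnrnpd (−2.07), Srsf1 (−1.70), Srsf9 (−1.49) and Hnrnpr (−1.17) on the lower side. Each of these was at 83.2 CPM or lower in both groups. Lactic5 held 80.94%, 71.47% and 66.62% of the whole-cell CPM of Hnrnpll, Hnrnpd and Hnrnpr, and Lactic6 63.6% and 77.91% of that of Srsf1 and Srsf9. On the higher side, Lactic16 held 55.77% of the scMeT-seq CPM of Hnrnpa0 and Lactic17 62.95% of that of Hnrnpul2. Total counts were alike (519683 to 678618 in scMeT-seq and 494520 to 635694 in whole cells), all 18 macrophage markers were detected in all 7 cells, and the early genes known to respond to cell handling summed to 574.7 to 2080 CPM and to 968.6 to 1466 CPM. The fibroblast markers, 3 of 14 measured, summed to 0 to 69.47 CPM in scMeT-seq cells and to 39.33 to 242.7 CPM in whole cells. Their part in the result was not tested.

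**Figure D5:**
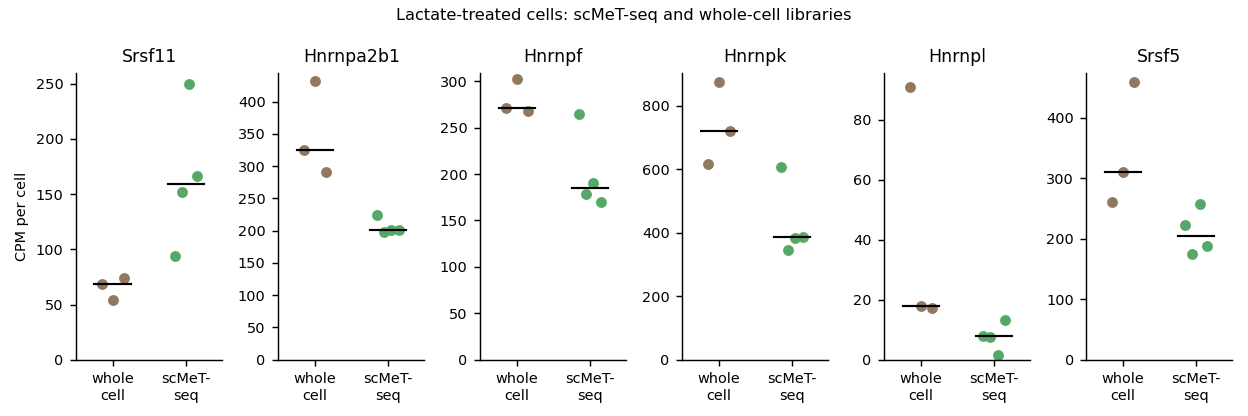
CPM per cell (vertical axes, each from 0) of the 6 members whose lactate-treated whole cells and scMeT-seq cells did not overlap, with the group median as a bar. Srsf11 is higher in the 4 scMeT-seq cells, and Hnrnpa2b1, Hnrnpf, Hnrnpk, Hnrnpl and Srsf5 are lower than in the 3 whole cells.

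With AZD3965 added to lactate, both family sums were higher, with overlapping cells. The median log2 ratio of all 8764 genes measured was 0.17, and other scalings moved ratios down by 0.15 to 0.16. Hnrnp genes summed to 2563, 1858, 2098, 2837 and 1889 CPM in the lactate cells T11, T13, W5, W20 and F18 and to 2649, 3011, 2411, 2464 and 2501 CPM in the cells T10, W10, W14, F8 and F9 given AZD3965. The group sums were 2282.5 and 2642.7 CPM (log2 ratio 0.21, 0.11 to 0.31), close to the median of all genes. Srsf genes summed to 996.26 and 1187.1 CPM (0.25, 0.10 to 0.41), with 615.6 to 1357 CPM over the lactate cells and 834.5 to 1506 CPM over the others.

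Of 29 members measured, 6 were at least 2-fold higher (20.7%, against 24.9% of all genes) and 1 at least 2-fold lower (3.45%, against 15.6%). No member had groups without overlap, beside 0.377% of all genes. The median log2 ratio was 0.29 for Srsf and 0.07 for Hnrnp, and the latter turned to −0.09 under TMM or size factor scaling, to −0.08 without W14, the cell with fibroblast markers, and to −0.19 without W5. The Srsf median was 0.03 without F9, and 5 members were at least 2-fold lower without T10, beside 18.9% of all genes.

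Hnrnpa1, the shuttling A/B-type hnRNP that often represses exons, was at 62.83, 17.1, 52.46, 92.53 and 33.14 CPM in the lactate cells and at 56.65, 106.8, 162.6, 205.3 and 287.7 CPM in the cells given AZD3965. Of the latter 5 cells, 4 lay above every lactate cell and T10 lay among them. The level was 2.77-fold higher (log2 ratio 1.47, 0.90 to 2.06). Within the cells whose names share a letter, T, W or F, whose meaning the labels do not give, the ratios were 0.54, 0.85 and 2.95.

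Hnrnpu was at 125.7, 0, 179.9, 215.9 and 121.5 CPM with lactate and at 297.4, 240.3, 381.9, 273.8 and 66.39 CPM with AZD3965 added. F9 lay below all lactate cells but T13, and the other treated cells lay above all of them. The log2 ratio was 1.09 (0.70 to 1.48), and 2.32, 0.63 and 0.28 within the letters T, W and F, and it was 0.68 without T13. Hnrnpdl was at 43.98, 0, 0, 98.69 and 132.6 CPM and at 141.6, 126.8, 91.93, 0 and 33.19 CPM (0.96, 0.33 to 1.62), and turned from 2.76 in T and 1.02 in W to −2.72 in F. With 1 cell left out it ran from 0.56 without T13 to 1.48 without W20.

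On the lower side, Hnrnpf was at 439.8, 336.3, 382.2, 438.0 and 287.2 CPM with lactate and at 184.1, 494.0, 176.8, 290.9 and 232.4 CPM with AZD3965 added (log2 ratio −0.45, −0.74 to −0.17). T10, W14 and F9 lay below all lactate cells, and W10 was the highest of all. Within the letters T, W and F the ratios were −1.07, −0.28 and −0.17. With 1 cell left out the ratio ran from −0.90 without W10 to −0.29 (−0.60 to 0.01) without W14. Srsf6 was at 100.5, 51.3, 97.42, 197.4 and 176.8 CPM and at 226.6, 0, 113.1, 0 and 22.13 CPM (−0.47, −1.01 to 0.05), and its ratio turned from 1.60 in T to −1.47 in W and −3.72 in F. It was −1.55 without T10 and −0.04 without W10.

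Srsf2 was at 31.41, 0, 52.46, 154.2 and 220.9 CPM with lactate and at 134.6, 0, 28.29, 154.0 and 0 CPM with AZD3965 added (−0.52, −1.20 to 0.13), and its ratios were 3.17, −2.98 and −1.87 within T, W and F. It was −1.42 without T10 and −0.06 without W20. The other members past 2-fold, named because they are few, rested on small counts. Srsf1 had 20 counts in 3 cells given AZD3965 and none with lactate. Against a floor of 3 counts over the group it was 8.27-fold higher (log2 ratio 3.05, lower limit 2.61), and F9 held 57.85% of its CPM. Hnrnpd had 21 and 2 counts, a log2 ratio of 3.70 (1.67 to 6.84). Srsf4 (1.87, 1.07 to 2.73) and Hnrnpl (1.08, −0.13 to 2.37) were higher and Hnrnpul1 (−2.01, −3.75 to −0.60) was lower.

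Without W14, 4 members were at least 2-fold higher (13.8%, against 20.5% of all genes) and 2 at least 2-fold lower (6.9%, against 21.6%). Hnrnpa1 then stood at a log2 ratio of 1.42, Hnrnpu at 0.86 and Hnrnpdl at 0.98, and Hnrnpl turned from 1.08 to −1.02. The macrophage markers summed to 57870 to 126300 CPM over the lactate cells and to 31240 to 89540 CPM over the cells given AZD3965. The fibroblast markers summed to 0 to 6804 CPM and to 0 to 17590 CPM. The 11 early genes known to respond to cell handling summed to 416.1 to 1369 CPM and to 840.9 to 3610 CPM. These lists moved beside the members, and their part in the result was not tested.

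Other splicing genes were read from 8 lists beside the members. In the lactate experiment, the medians of these lists lay between −0.20 (tri-snRNP and Prp19 complex, 16 genes) and 0.28 (other hnRNP proteins, 12 of 13 measured), and no list had more than 2 genes at least 2-fold higher or more than 2 at least 2-fold lower. Among the latter, Eftud2, a GTPase of the tri-snRNP, was at 19.74 and 55.74 CPM (log2 ratio −1.50, −1.95 to −1.06), and Eif4a3, the helicase of the exon junction complex, at 44.74 and 90.07 CPM (−1.01, −1.32 to −0.71).

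With AZD3965 added, the median was 0.89 for the U1 and Sm proteins (8 of 10 measured, 3 at least 2-fold higher and 0 lower), 0.75 for other splicing regulators (16 of 19, 5 and 1) and 0.37 for other hnRNP proteins (11 of 13, 2 and 0), beside 0.17 for all genes. It was 0.52 for the SR protein kinases and import factors (9 of 10, 3 and 2), 0.15 for the U2 and branch site proteins (14 genes, 3 and 3) and 0.02 for the tri-snRNP and Prp19 complex (15 of 16, 3 and 5). For SR-related proteins it was −0.20 (17 genes, 3 and 2), and for the exon junction and nonsense-mediated decay list −0.19 (14 of 15, 4 and 4). The hnRNP protein Syncrip was at 122.2 and 29.14 CPM (2.07, 1.35 to 2.85), the nuclear speckle protein Son at 191.0 and 73.54 CPM (1.38, 0.89 to 1.88) and Clk1, a kinase of SR proteins, at 43.01 and 87.42 CPM (−1.02, −1.75 to −0.33).

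In the technique comparison the other hnRNP proteins had a median of −0.50 (11 of 13 measured, 0 higher and 5 lower), near that of the Hnrnp members, whereas SR-related proteins (0.02, 17 genes) and SR protein kinases (−0.00, 9 of 10) lay near all genes. The U2 and branch site proteins were at 0.00 (14 genes, 0 higher and 2 lower), other splicing regulators at −0.16 (17 of 19, 4 and 3), the U1 and Sm proteins at −0.18 (9 of 10, 0 and 2), the exon junction list at −0.20 (15 genes, 2 and 3) and the tri-snRNP list at −0.29 (16 genes, 3 and 5). In the whole cells, SR-related proteins had a median of −0.79 with 0 of 17 higher and 6 lower, beside −0.20 for all genes, and the other 7 lists lay between −0.58 (SR protein kinases, 8 of 10) and 0.25 (U2 and branch site proteins, 14 genes). Srrm2, a large spliceosome scaffold with arginine-serine repeats, was at 169.3 CPM with lactate and 345.5 CPM in control (−1.03) among them.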

How the data were processed

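Single-cell Smart-seq2 libraries of 35 mouse cells, labelled as peritoneal macrophages, were analysed. The authors used fastp for trimming, HISAT2 for alignment to mm10 and StringTie for gene-level counting. They deposited raw counts as whole numbers, not normalized and without molecular identifiers. Groups were taken from the sample labels. The members and all gene lists were chosen with earlier results of these data known.

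The cells of a group were added up gene by gene, and CPM was taken relative to the total over all genes of these sums. Ratios between groups are log2 ratios of CPM with exact conditional binomial 95% intervals, for genes with at least 10 counts over both groups, and a group at 0 was set to a floor of 3 counts over the group. A gene was called at 2-fold or more. Cells carry no animal or culture and are no replicates, so no test was run, and intervals and floors cover counting error only. The PCR reads are not independent molecules, which widens the true error. The ratios and intervals were also run on simulated Poisson counts with known folds. These counts held no variation between cells beyond depth and no PCR copies, so they do not bear on such error here.

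Values in every cell are given for the 2 members of each family with the highest level per kilobase of exon, and in each comparison for the 3 highest and 3 lowest ratios among members that reached 50 CPM in the higher group, were detected in 50% or more of that group's cells and did not owe more than 50% of their CPM there to 1 cell. Exons, transcripts and coding sequences are from GENCODE M21 (GRCm38). In the table of the AZD3965 experiment, a value of 2 occurred 6215 times and a value of 1 1914 times, and the sources used here do not say why. Columns without a sample numbered 0.

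Alternatives were the mean CPM of cells, TMM (edgeR 4.0.16) and median-of-ratios (DESeq2 1.42.0) scaling in R 4.3.3, minimums of 1 and 100 counts, each cell left out, cells thinned to the smallest total, cells within a name letter, cells whose number occurs in both groups, and leaving out cells whose fibroblast or mesothelial markers reached 10% of their macrophage markers. Python 3.11.15, numpy 2.4.6, pandas 2.3.3, scipy 1.17.1 and matplotlib 3.10.9 were used.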

Additional observations from a re-analysis of the deposited data

Results flagged for a closer look

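For 15 of 102 sets of values, a set being 1 measure or named member in 1 group of 4 to 8 cells, the highest or lowest cell stood apart from the others by Dixon's 95% criterion. A rate of 1 in 20 would give about 5.1, but that rate holds for independent, normally distributed values. These values are skewed and hold zeros, and the members were named by ratio or level in the same cells. No excess over chance can be read from the 15. Among the control cells, the Hnrnp sum of CTL32 was 3206 CPM (next 2059), CTL27 had 14 members detected (next 24) and 757.3 CPM of Hnrnpf (next 282.4), CTL30 had 197.2 CPM of Hnrnph1 (next 77.91) and CTL28 had 117.8 CPM of Hnrnpul1 (next 50.56). Among the lactate cells, Lactic27 had 145.7 CPM of Hnrnpab (next 77.07), Lactic30 had 186.7 CPM of Hnrnpdl (next 54.46), Lactic28 had 283.1 CPM of Hnrnpul1 (next 130.4) and Lactic31 had 0 CPM of Srsf5 (next 186.7).

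Among the scMeT-seq cells of the technique experiment, Lactic13 had 224.4 CPM of Hnrnpa2b1 (next 201.8) and 608.8 CPM of Hnrnpk (next 387.6). Among the lactate cells of the AZD3965 experiment, T13 had 22.8 CPM of Hnrnph2 (next 134.9). Among the cells given AZD3965, T10 had 162.9 CPM of Hnrnph1 and F8 had 85.55 CPM of Hnrnpul1, each with the next cell at 0, and F8 had 256.7 CPM of Srsf7 (next 106.2).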

How the results depend on the processing

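No paired analysis was possible because the results come from no test. With the cells whose number occurs in both groups, lactate against control had 6 higher and 3 lower members (15.4% and 25.9% of all genes), medians of 0.13 for Hnrnp and −0.25 for Srsf, and 1.77 for Hnrnpu. With a minimum of 100 counts, members at least 2-fold higher and lower numbered 5 and 1 for lactate against control, 2 and 0 for AZD3965 with lactate, 1 and 2 for scMeT-seq against whole cells, and 2 and 1 for the whole cells, since fewer members are then measured. In the same order, the shares of all genes were 9.35% and 12.6%, 8.85% and 4.24%, 13.6% and 11.5%, and 8.48% and 16.8%. Without the cells with fibroblast or mesothelial markers, lactate against control had 9 higher and 1 lower and AZD3965 with lactate had 2 lower, and the technique and whole-cell comparisons held no such cell. For AZD3965 with lactate, thinning gave 3 lower members, beside 13.9% of all genes. The letters T, W and F gave 3, 4 and 4, beside 19.0%, 22.0% and 20.8%. With 1 cell left out, the count of lower members ran from 0 to 3 for lactate, from 1 to 5 for AZD3965, from 3 to 9 for the technique and from 1 to 6 for the whole cells. The lower share of all genes ran from 19.0 to 25.9%, from 14.9 to 21.6%, from 17.9 to 26.2% and from 25.4 to 34.3%. In the whole cells the count of higher members then ran from 2 to 9, the Hnrnp median from 0.052 to 0.54 and the Srsf median from −0.32 to 0.67, the highest values without CTL4. The higher share of all genes there ran from 14.5 to 23.6%, also highest without CTL4. Detection with at least 5 counts gave medians of 21 members in control, 27.5 in control whole cells, 22.5 in scMeT-seq cells, and 18 and 19 in the lactate and AZD3965 cells of the AZD3965 experiment. The cause was not tested. Over the fixed alternatives, 115 summary values stayed within their error or 1.5 times and 19 did not, and with cells left out 139 did and 13 did not. For a family median this error was an interval over the ratios of its members, −0.99 to 1.31 for Srsf in lactate against control. A median could turn sign and still count as staying, so these numbers do not show that the medians are stable. For named members these numbers were 137 and 23, and 186 and 27. In the AZD3965 experiment, 58444 to 175450 counts per cell limit members of low level.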
